A study of Caenorhabditis elegans with 6 samples.

Results

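The proteasome subunit genes of *C. elegans* were examined in mid-aged worms with impaired mRNA decapping. The genes are the 31 whose WormBase numbers fall in the ranges of the *pas* genes (alpha subunits of the core particle), *pbs* genes (beta subunits of the core particle), *rpt* genes (ATPases of the regulatory particle) and *rpn* genes (its non-ATPase subunits). All 31 had a value on every array, among 17397 genes in all. The rule used identifiers and no measured value, although earlier results of these data were known when the genes were picked. The deposited values carry identifiers and no gene symbols, and 0 of the 31 identifiers were named in the tables that were used to name genes. Each member therefore took its name from its place in its range. The ranges hold 7 *pas*, 7 *pbs*, 6 *rpt* and 11 *rpn* identifiers, the same numbers as the names of these classes in RefSeq within the limits of the ranges. In 231 of 231 neighbouring pairs of named genes from 92 other gene classes, the identifiers ran in the same order as the gene numbers. A value given for 1 named member rests on that order, whereas the class of a member does not. The gene given as *rpn-6* is *rpn-6.1* in RefSeq.

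Arrays were made from 3 populations of *dcap-1(rf)* worms and 3 populations of wt worms. The *dcap-1(rf)* strain carries the allele *tm3163*, which reduces but does not abolish the function of DCAP-1, the activator of the decapping enzyme. The wt strain is N2. All worms were on day 9 of adulthood and had been kept at 20 °C on OP50 bacteria (killed by UV, per the study's methods) with 10 µg/mL FUDR, an inhibitor of DNA synthesis that stops the production of progeny, so both groups carried this treatment. RNA came from whole worms, 200 to 300 per population, and the mutant was represented by 1 strain. In whole-worm RNA, fewer cells of a type and less RNA per cell cannot be told apart.

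The proteasome degrades proteins that have been marked with chains of ubiquitin. Its core particle is a stack of rings in which the beta subunits hold the protein-cutting sites and the alpha subunits form the gate. The regulatory particle caps the core, recognizes ubiquitin, removes it, and unfolds the substrate with a ring of ATPases that threads it into the core. The subunits are used in fixed proportions, and their genes are broadly expressed in the soma and the germline of the worm. In *C. elegans* the transcription factor SKN-1A raises the expression of many of these genes together when proteasome function is impaired. The comparison asks whether the mRNA levels of the subunits differ in animals with reduced decapping, a step in the decay of mRNAs.

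The value used is the log2 expression value that the authors made with RMA, which gives the arrays a common distribution of probe signals. RMA values of different genes depend on their probes, so the levels of different subunits were not set against each other. The median value per array was between 2.18 and 2.24, and Pearson's r between 2 arrays was between 0.990 and 0.997 across genes, which are not independent replicates. *dcap-1* itself had values of 4.50, 4.52 and 4.65 on the *dcap-1(rf)* arrays, against 5.44, 5.30 and 5.26 on the wt arrays. Its groups did not overlap (log2 fold change -0.77, adjusted p = 0.00469 from limma), so the arrays labelled as mutant carried less *dcap-1* signal. With 3 arrays per group, precision was set by the number of arrays. The labels name no batch.

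None of the proteasome subunit genes was differentially expressed in *dcap-1(rf)* worms. The call required a limma p under 0.05 after Benjamini-Hochberg adjustment over 13047 genes tested. These were the genes left once the lowest 25% by average had been dropped, and all 31 members passed this filter. By this rule 0 of 31 members were lower, where 0.161% of all genes tested were, and 0 of 31 were higher, where 1.46% of all genes tested were. The adjusted p-values of the members lay between 0.308 and 0.957. At an unadjusted p under 0.05 in the same fit, 1 member was lower (3.23%) and 0 were higher, where 6.22% of all genes tested were lower and 7.59% higher.

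The log2 fold changes of the 31 genes, *dcap-1(rf)* over wt, lay between -0.22 and 0.11, with a median of -0.06. Expressed as a share of the wt level, the members stood between 85.9% and 108.1%, with a median of 96.0%. The 95% intervals of the fold changes give the sizes that these arrays exclude for the normalized signal. RMA gives the arrays a common distribution, so a change shared by most mRNAs would not show in these values. For all 31 genes the interval excluded both a 1.5-fold rise and a 1.5-fold fall. For 23 of 31 it excluded a 1.25-fold change in either direction, and for 16 of 31 a 1.2-fold change. A 1.1-fold rise was excluded for 22 of 31 and a 1.1-fold fall for 1 of 31, and both together for 0 of 31. The interval included 0 for 30 of the 31 genes, the exception being *rpt-3*. Each interval covers 1 gene and is not adjusted for the number of genes.

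**Figure D1:**
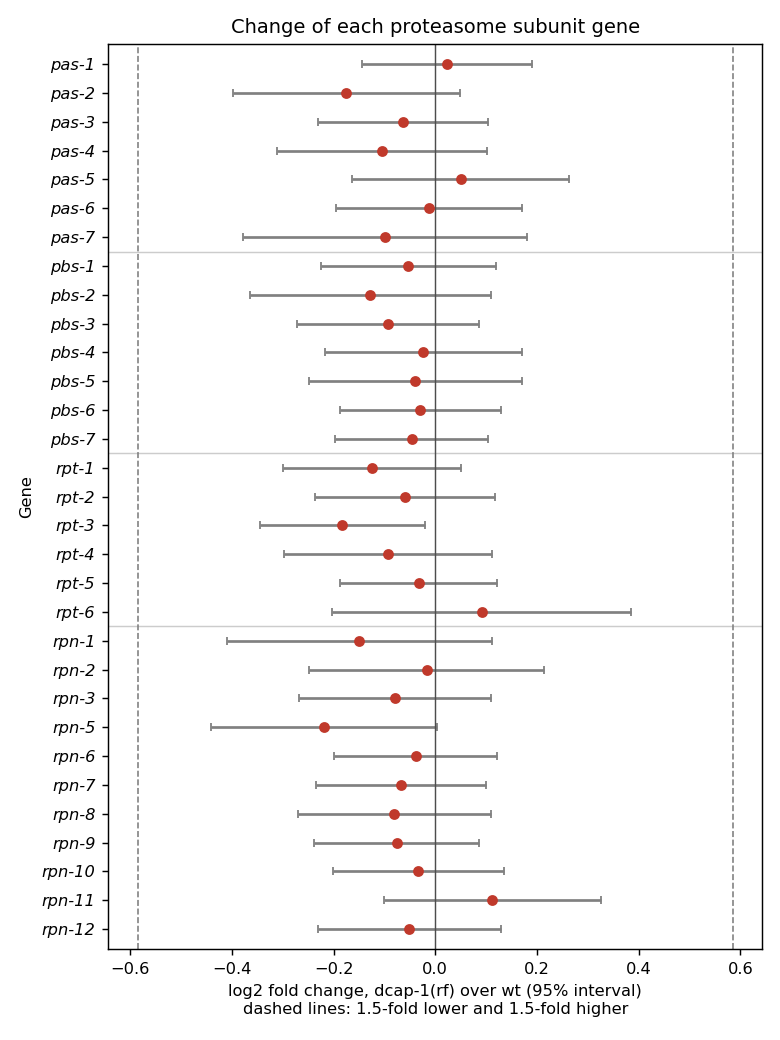
The log2 fold change of each proteasome subunit gene, *dcap-1(rf)* over wt, is plotted on the horizontal axis, with the gene on the vertical axis; bars are 95% intervals from limma (3 arrays per group), and the dashed lines mark 1.5-fold. All 31 intervals lie inside the dashed lines, and 27 of the 31 points lie below 0.

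The direction was shared by most members although none passed the test. The log2 fold change was negative for 27 of 31 genes (87.1%), where 55.4% of all genes tested had a negative value, and positive for 4, *pas-1*, *pas-5*, *rpn-11* and *rpt-6*. The median of -0.06 compares with a median of -0.02 over all genes tested. Members of 1 array share that array's RNA, so these 31 signs are not 31 independent observations.

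In the alpha ring, which forms the gate of the core particle, 5 of 7 genes had a negative and 2 a positive log2 fold change, with a median of -0.06. *pas-2* had the lowest, with values of 7.26, 7.01 and 7.29 on the *dcap-1(rf)* arrays and 7.42, 7.32 and 7.35 on the wt arrays. All 3 mutant arrays lay below all 3 wt arrays, but replicate 3 of the mutant was within 0.03 of replicate 2 of wt. This gave -0.17 on the log2 scale (standard error 0.10), or 88.6% of wt with an interval of 75.9% to 103.4%, and limma's adjusted p was 0.470. Without *dcap-1(rf)* replicate 2 the difference of *pas-2* was -0.08. *pas-4* (-0.10), *pas-7* (-0.10), *pas-3* (-0.06) and *pas-6* (-0.01) followed, and in each of them the groups overlapped. *pas-7* had the widest spread among the wt arrays of any member, an SD of 0.23 (n = 3), which exceeds its difference between the strains.

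The 2 alpha subunit genes with positive values changed by less than their spread. *pas-5* had 7.63, 7.63 and 7.79 in *dcap-1(rf)*, against 7.52, 7.60 and 7.77 in wt. Replicate 3 was the highest array in both strains, and the difference was 0.05 on the log2 scale (standard error 0.09). *pas-1* had 7.38, 7.33 and 7.30 in *dcap-1(rf)*, against 7.35, 7.24 and 7.36 in wt, a log2 fold change of 0.02 with an interval of 90.5% to 114.1% of wt.

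In the beta ring, 7 of 7 genes had a negative log2 fold change, all of them small, between -0.13 and -0.02, with a median of -0.05. The protein-cutting sites of the core are carried by 3 of these subunits, encoded by *pbs-1* (cutting after acidic residues), *pbs-2* (after basic residues) and *pbs-5* (after hydrophobic residues). *pbs-2* had 6.93, 7.14 and 7.30 on the *dcap-1(rf)* arrays, against 7.30, 7.25 and 7.21 on the wt arrays. The first 2 mutant arrays were below the wt range, while replicate 3 lay within it, and the mutant SD of 0.18 (n = 3) was larger in size than the difference of -0.13 on the log2 scale (standard error 0.10). Its adjusted p from limma was 0.621. Without *dcap-1(rf)* replicate 1 the difference was -0.03. *pbs-1* had 7.30, 7.35 and 7.41 in *dcap-1(rf)*, against 7.48, 7.35 and 7.39 in wt, with a log2 fold change of -0.05. *pbs-5* had 6.92, 6.69 and 6.97 in *dcap-1(rf)*, against 6.90, 6.88 and 6.92 in wt. Its replicates 1 and 3 lay at or above every wt array and replicate 2 below every wt array, and its log2 fold change was -0.04. The intervals of the 3 catalytic genes spanned 85.5% to 108.6% of wt for *pbs-1*, 77.7% to 107.9% for *pbs-2* and 84.1% to 112.5% for *pbs-5*.

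Among the beta subunit genes without a cutting site, *pbs-7* had the smallest spread of all 31 members. Its values were 7.90, 7.90 and 7.88 on the *dcap-1(rf)* arrays and 7.96, 7.92 and 7.93 on the wt arrays. The groups did not overlap, and the difference of -0.05 was larger than the SDs of 0.01 in *dcap-1(rf)* and 0.02 in wt (n = 3 each). limma, which moderates small SDs towards those of the other genes, gave a standard error of 0.06 and an adjusted p of 0.791. *pbs-3* had a log2 fold change of -0.09, *pbs-6* of -0.03 and *pbs-4* of -0.02, with overlapping groups in each.

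**Figure D2:**
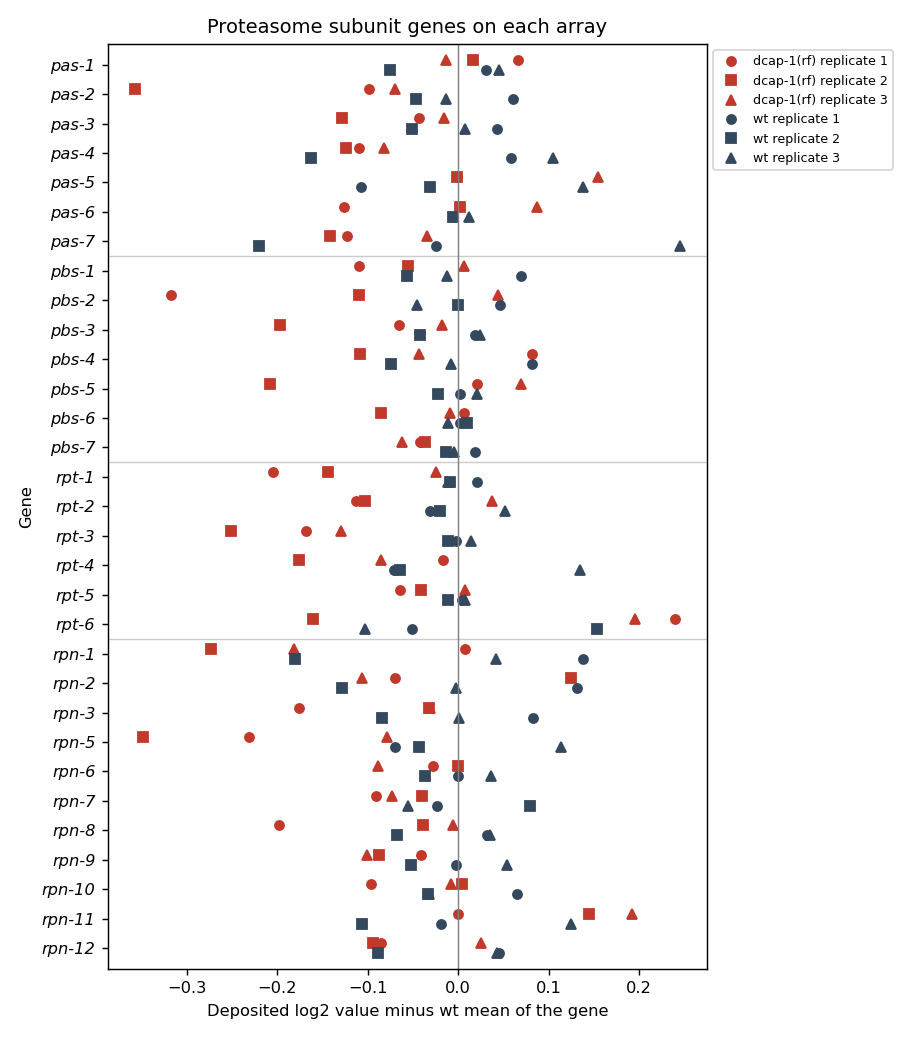
The value of each gene on each of the 6 arrays is plotted as its difference from the wt mean of that gene (horizontal axis, log2), with the genes grouped into *pas*, *pbs*, *rpt* and *rpn* on the vertical axis; in each row the *dcap-1(rf)* arrays are drawn above the wt arrays. Of the points, 84 of 93 from *dcap-1(rf)* and 91 of 93 from wt lie within 0.2 of the wt mean. The wt points themselves form that mean, which by construction draws them nearer to it than the mutant points. The groups are apart for *pas-2*, *pbs-7*, *rpt-1*, *rpt-3* and *rpn-5*.

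The ATPase ring of the regulatory particle unfolds substrates, and 5 of its 6 genes had a negative log2 fold change, with a median of -0.08. *rpt-3* came nearest to a call of all the members. Its values were 8.33, 8.25 and 8.37 on the *dcap-1(rf)* arrays, against 8.49, 8.48 and 8.51 on the wt arrays. The groups did not overlap, and the wt arrays agreed closely (SD 0.01, n = 3). This difference was -0.18 on the log2 scale (standard error 0.07), with *dcap-1(rf)* at 88.1% of wt and an interval of 78.7% to 98.6%. Its unadjusted p from limma was 0.0318 and its adjusted p 0.308, so it did not pass the test over all genes. In RefSeq's annotation of WBcel235 *rpt-3* lies on chromosome III from 6489793 to 6491282.

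*rpt-1* had 7.54, 7.60 and 7.72 in *dcap-1(rf)*, against 7.76, 7.73 and 7.73 in wt. The groups were apart by a narrow margin, since replicate 3 of the mutant reached 7.72. Its difference of -0.12 on the log2 scale had a standard error of 0.08 (limma, adjusted p = 0.515). *rpt-4* (-0.09), *rpt-2* (-0.06) and *rpt-5* (-0.03) had smaller values and overlapping groups. *rpt-6* was the exception in sign, with 4.55, 4.15 and 4.51 on the *dcap-1(rf)* arrays and 4.26, 4.47 and 4.21 on the wt arrays. Replicate 2 was the lowest of the 6 values in the mutant, and the highest of the wt values in wt. Its log2 fold change of 0.09 had the largest standard error among the members (0.13), and its interval reached 130.6% of wt, the highest upper bound of the 31. Leaving out single arrays gave log2 fold changes as low as 0.02, on omitting mutant replicate 1, and as high as 0.22, on omitting mutant replicate 2.

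The non-ATPase subunits make up the rest of the regulatory particle, and 10 of these 11 genes had a negative log2 fold change, with a median of -0.07. *rpn-5*, a structural subunit of the lid, had the largest change of all members. Its values were 7.15, 7.04 and 7.31 on the *dcap-1(rf)* arrays and 7.31, 7.34 and 7.50 on the wt arrays. The mutant arrays were all below the wt arrays, although replicate 3 of the mutant and replicate 1 of wt differed by less than 0.01. The difference was -0.22 on the log2 scale (standard error 0.10), with *dcap-1(rf)* at 85.9% of wt and an interval of 73.6% to 100.2%. Its adjusted p from limma was 0.366. *rpn-5* lies on chromosome II from 4696421 to 4698294 of WBcel235.

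*rpn-1*, a scaffold of the base that in yeast binds ubiquitin and the proteins that deliver it, had 6.80, 6.51 and 6.61 in *dcap-1(rf)*, against 6.93, 6.61 and 6.83 in wt. The groups overlapped, with replicate 2 the lowest array in both strains, and the difference was -0.15 on the log2 scale (standard error 0.11; limma, adjusted p = 0.599). It was -0.24 on omitting wt replicate 2 and -0.08 on omitting wt replicate 1. *rpn-2*, the other large scaffold of the base, stood at -0.02. The lid genes *rpn-8* (-0.08), *rpn-3* (-0.08), *rpn-9* (-0.08), *rpn-7* (-0.07), *rpn-12* (-0.05) and *rpn-6* (-0.04) lay close together. *rpn-10*, a receptor for ubiquitin chains, stood at -0.03. None of these genes had groups that were apart.

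*rpn-11* encodes the metalloprotease that takes ubiquitin off the substrate and had the highest log2 fold change of the members. Its values were 6.56, 6.70 and 6.75 on the *dcap-1(rf)* arrays, against 6.54, 6.45 and 6.68 on the wt arrays. Replicates 2 and 3 of the mutant were above every wt array and replicate 1 was within the wt range. The difference of 0.11 on the log2 scale (standard error 0.09; limma, adjusted p = 0.629) corresponds to 108.1% of wt with an interval of 93.3% to 125.3%. *rpn-8*, whose product forms a pair with that of *rpn-11*, had 94.6% of wt, with an interval of 82.9% to 107.8%. The difference between these genes was not tested.

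Over all members, the groups did not overlap in 5 genes, each of them lower in *dcap-1(rf)*, and in 0 genes in the other direction. The 5 are 16.1% of the members, where 9.67% of all genes tested had all mutant arrays below all wt arrays and 8.93% had them above. They were *pas-2*, *pbs-7*, *rpt-1*, *rpt-3* and *rpn-5*, and so came from each of the 4 gene classes. In 4 of these 5 the gap between the nearest mutant and wt arrays was under 0.03 on the log2 scale, and in *rpt-3* it was 0.12.

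The arrays of a strain differed in how the members stood. Relative to the wt mean of each gene, the median over the 31 genes was -0.07, -0.09 and -0.02 on *dcap-1(rf)* replicates 1, 2 and 3, and 0.02, -0.04 and 0.01 on wt replicates 1, 2 and 3. The groups overlapped in this summary, since *dcap-1(rf)* replicate 3 lay above wt replicate 2. The mean of the 3 arrays was -0.06 ± 0.04 in *dcap-1(rf)* and 0.00 ± 0.03 in wt (SD, n = 3 each). The wt arrays form the reference, so their mean lies near 0.00 by construction. Over all genes tested, the same medians were -0.02, -0.01 and -0.01 on the mutant arrays, and 0.00, -0.01 and 0.01 on the wt arrays.

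The number of members below their wt mean was 25, 26 and 21 of 31 on *dcap-1(rf)* replicates 1, 2 and 3, and 12, 28 and 11 on wt replicates 1, 2 and 3. wt replicate 2 thus had more members below the wt mean than any mutant array, and it was the lowest of the wt arrays for 21 of the 31 genes. Among the mutant arrays, replicate 3 was the highest for 19 of the 31 genes. Of all genes tested, 55.3%, 52.4% and 53.6% were below the wt mean on *dcap-1(rf)* replicates 1, 2 and 3. On wt replicates 1, 2 and 3 the shares were 47.9%, 56.0% and 46.7%. *dcap-1(rf)* replicate 2 thus had the smallest share of all genes below among the mutant arrays, but the most members below. The part that these array-wide shifts have in the median of the members was not tested.

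**Figure D3:**
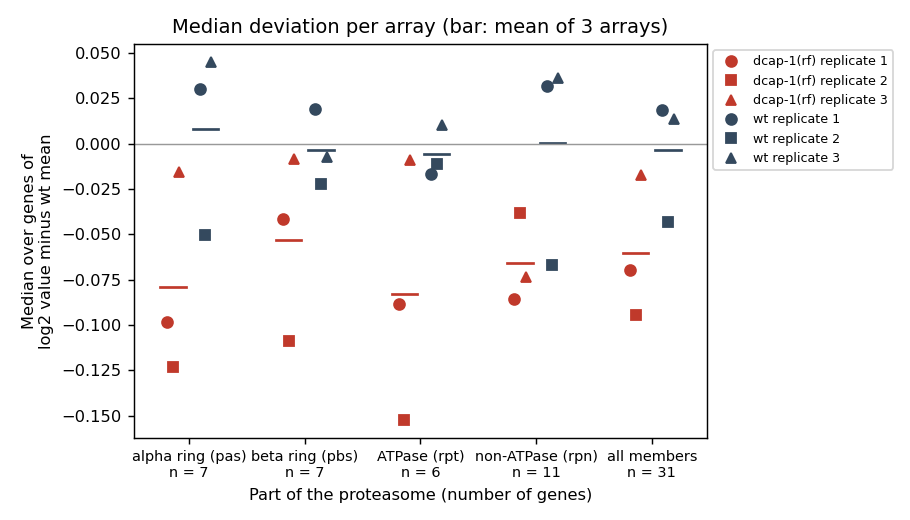
The median over genes of the log2 value minus the wt mean (vertical axis) is plotted for each array, for the *pas*, *pbs*, *rpt* and *rpn* genes and for all 31 members (horizontal axis); symbols are the replicates, with *dcap-1(rf)* left of wt, and bars are means of 3 arrays. Over all members *dcap-1(rf)* replicate 3, at -0.02, lies above wt replicate 2, at -0.04.

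The mean over arrays of the class median was -0.08 ± 0.06 in *dcap-1(rf)* and 0.01 ± 0.05 in wt for the *pas* genes, and -0.05 ± 0.05 in *dcap-1(rf)* and 0.00 ± 0.02 in wt for the *pbs* genes (SD, n = 3 each). For the *rpt* genes it was -0.08 ± 0.07 in *dcap-1(rf)* and -0.01 ± 0.01 in wt, and for the *rpn* genes -0.07 ± 0.02 in *dcap-1(rf)* and 0.00 ± 0.06 in wt (SD, n = 3 each). Here too the wt means lie near 0.00 by construction. In the *rpn* genes the lowest wt array, replicate 2 at -0.07, was below 1 of the mutant arrays, replicate 2 at -0.04. In the *rpt* genes *dcap-1(rf)* replicates 1 and 2, at -0.09 and -0.15, were below all wt arrays, and replicate 3, at -0.01, was not. No test of a difference between the classes was made.

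The changes of the subunit genes were packed more closely than those of the array as a whole. The quartiles of the members' log2 fold changes were -0.10 and -0.03, whereas over all genes tested the quartiles were -0.11 and 0.08. The median size of the change, whatever its sign, was 0.07 in the members and 0.10 over all genes tested. A change of 1.2-fold or more was measured in 0 of 31 members and in 13.2% of all genes tested, and a change of 1.1-fold or more in 4 members and in 36.5% of all genes tested. The 4 were *rpn-5*, *rpt-3*, *pas-2* and *rpn-1*.

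**Figure D4:**
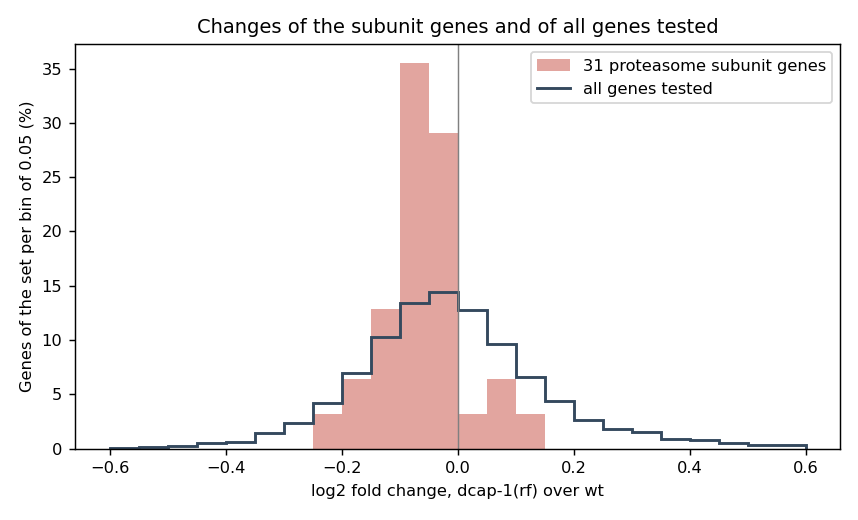
The share of genes per bin of 0.05 (vertical axis, %) is plotted against the log2 fold change, *dcap-1(rf)* over wt (horizontal axis), as filled bars for the 31 subunit genes and as a line for all 13047 genes tested. The members lie between -0.22 and 0.11, and 2.63% of all genes tested lie beyond the ends of the axis range at -0.6 and 0.6.

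The members' median SD between replicates was below that over all genes tested. It was 0.08 in *dcap-1(rf)* and 0.06 in wt, against 0.11 in *dcap-1(rf)* and 0.10 in wt over all genes tested. The part that the members' higher signal level has in this difference was not tested. Of the 31 members, 5 (*pas-5*, *pas-6*, *pbs-5*, *rpn-6* and *rpt-5*) had values on 2 arrays that were equal in every decimal deposited, as did 4004 genes in the file.

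The genes lie on 5 chromosomes in RefSeq's annotation of WBcel235, in which all 31 were found by name. Chromosome I holds 10 of them, chromosome II 7, chromosome III 6, chromosome V 5 and chromosome IV 3. The median log2 fold change was -0.04 for the genes on chromosome I, -0.09 on II, -0.03 on III, -0.07 on IV and -0.06 on V. These medians were not tested against each other.

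Other genes of the ubiquitin and proteasome pathway could be followed only in small part, because most of them had no name in the tables used. Of the genes tested that those tables name, 97.4% had a positive log2 fold change, where 44.6% of all genes tested did, so the direction of a gene named through them is not a finding. Of 22 other proteasome parts and regulators 5 had a name, of 43 ubiquitin, conjugation and delivery genes 4, and of 21 cullins and cullin partners 3. Of these, 0 were differentially expressed, where 0.161% of all genes tested were called lower and 1.46% higher. *rpn-6.2*, a paralog of *rpn-6*, had 3.55 ± 0.09 in *dcap-1(rf)* and 3.34 ± 0.06 in wt (SD, n = 3 each), with groups that did not overlap and an adjusted p from limma of 0.293. *png-1*, a glycanase that processes SKN-1A, had 4.99 ± 0.16 in *dcap-1(rf)* and 4.83 ± 0.08 in wt (SD, n = 3 each), with an adjusted p of 0.507. *aip-1*, an arsenite-inducible protein associated with the proteasome, varied widely between arrays, with 6.33 ± 0.65 in *dcap-1(rf)* and 6.09 ± 0.61 in wt (SD, n = 3 each).

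The genes for the transcription factors *pqm-1* and *elt-2* had log2 fold changes of 0.39 and 0.20 (adjusted p = 0.390 and 0.293 from limma). Among the E2 ubiquitin-conjugating enzymes that had a name, the log2 fold changes were 0.29 for *ubc-23*, 0.28 for *ubc-3*, 0.22 for *ubc-14* and 0.16 for *ubc-25*. The groups overlapped in each, and the adjusted p-values from limma lay between 0.312 and 0.496. The E2 genes without a name were not followed. *skr-3*, which encodes an adaptor between cullins and F-box proteins, had 6.11 ± 0.13 in *dcap-1(rf)* and 5.64 ± 0.05 in wt (SD, n = 3 each). Its log2 fold change of 0.47 (standard error 0.09) missed the threshold (adjusted p = 0.0507 from limma). In 8 of 15 alternative settings it passed, among them those with 1 or 2 residual components, which remove residual variation by construction. With 1 array left out it passed only on omitting *dcap-1(rf)* replicate 3 (adjusted p = 0.0218 from limma). Omitting any other array gave adjusted p-values between 0.118 and 0.195, and the replicate block gave 0.0942. *cul-6* and *skr-5*, which encode a cullin and another such adaptor, had log2 fold changes of 0.39 and 0.38, with adjusted p-values of 0.241 and 0.203.

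Markers of tissues could be checked only in part, for the same reason. Of 11 markers of sperm 3 had a name, and 2 of them, *msp-50* and *msp-76*, were higher in *dcap-1(rf)* (6.88 and 6.41, against 3.40 and 2.88 in wt). The other, *spe-11*, was not called (log2 fold change 0.25, adjusted p = 0.660 from limma). Of 9 markers of the intestine 5 had a name and 2 were higher, *asp-1* (log2 fold change 0.73) and *ifb-2* (0.74). *act-5* (0.25) and *elt-2* (0.20) were not called, although their groups did not overlap. *cpr-6* had 8.41 in *dcap-1(rf)* and 8.88 in wt, with groups that did not overlap (adjusted p = 0.154 from limma). Of 15 markers of the germline and oocyte 1 had a name, *egg-2*, with 7.92 in *dcap-1(rf)* and 8.17 in wt. Its groups did not overlap (adjusted p = 0.158 from limma). Of 6 markers of body wall muscle 5 had a name, with log2 fold changes between 0.16 and 0.29, overlapping groups in each and none differentially expressed. Of 5 markers of the hypodermis 1 had a name, *col-19*, with 5.71 in *dcap-1(rf)* and 5.09 in wt, groups that did not overlap and an adjusted p of 0.166 from limma. Of 6 markers of neurons 2 had a name, *unc-64* (log2 fold change 0.24) and *snb-1* (0.16, with groups that did not overlap), and neither was differentially expressed. Of 8 markers of the embryo 0 had one. The share of markers with a name was 83.3% for body wall muscle and at most 55.6% for the other tissues. Over all genes tested 1.46% were called higher, and the share among the named genes was not computed. *egg-2* and *cpr-6* had negative values, but neither was differentially expressed, and 1 gene does not show the state of a tissue. Because nearly all named genes had positive values, the positive signs of the other markers do not show how the tissue make-up of the worms compared. The same holds for the counts of markers called higher. The part of tissue make-up in the values of the proteasome genes was not tested.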

How the data were processed

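Biotin-labelled cRNA, made from 150 ng of total RNA per population, was hybridized on Affymetrix *C. elegans* Genome Arrays. The authors deposited log2 values made with RMA and a BrainArray gene-level chip description, and name surrogate variable analysis without saying whether the deposited log2 values carry it; the submitters' processing notes name R 3.3.0 and WBcel235. Depth does not apply to arrays; their number, 3 per group, sets the precision.

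The comparison of the strains used limma (version 3.58.1, under R 4.3.3). Strain was the sole model term, the lowest 25% of genes by average were dropped ahead of empirical Bayes moderation, and p-values of 13047 genes were adjusted by Benjamini-Hochberg. Intervals are 95% intervals of the moderated model. The procedure was tested on simulated data. Plots were made with Python 3.11.15 and matplotlib 3.10.9.

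Named are all members, with values per array for those whose groups do not overlap, the 4 lowest and 4 highest log2 fold changes and the 3 catalytic genes, and from each pathway list the genes that have a name in the study's supplementary tables, used for names only. The members, lists and tests were chosen with earlier results of these data known. Ribosomal protein genes, set down as a comparison list, were not analysed here, because few of them have a name in those tables. Sequences were not used here. Alternatives were 2 other filters, a trended robust prior, 1 or 2 residual components as covariates, median centring, quantile normalization, weights per array, a block for replicate number, and omission of single arrays.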

Additional observations from a re-analysis of the deposited data

How the results depend on the processing

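With all arrays or with any 1 left out, none of the 31 proteasome subunit genes was called under any of the 15 alternatives, and the smallest adjusted p of a member from limma was 0.164, for *rpt-3* with a trended robust prior. With all arrays, 27 members were lower under each of the 9 alternatives. The filters, the prior, the residual components and the block cannot change a log2 fold change here. Only median centring, quantile normalization and weights per array could have changed a sign. With 1 array left out, between 25 and 28 members were lower. The median log2 fold change of the members was -0.05 with median centring, -0.07 with quantile normalization and between -0.09 and -0.04 (without wt replicate 1) with 1 array left out. The median over all genes tested stayed between -0.02 and 0.00. The number of differentially expressed genes over all genes tested, 211, was 328 with 1 residual component and 411 with 2. Those components were taken from the residuals of the same model, so adding them removes residual variation by construction. With 1 array left out the number lay between 84 and 306. It was 84 on omitting wt replicate 2, 94 on omitting wt replicate 1 and 122 on omitting *dcap-1(rf)* replicate 2. The cause of this spread between omitted arrays was not tested. With 1 array left out, the log2 fold change moved by over 1.5 times or changed sign in 27 of 31 members, the other 4 being *pbs-7*, *rpn-5*, *rpt-1* and *rpt-3*. Of the genes that changed sign, the log2 fold changes then lay between -0.015 and 0.046 for *pas-1*, between -0.0032 and 0.12 for *pas-5*, between -0.062 and 0.045 for *pas-6*, between -0.21 and 0.023 for *pas-7*, between -0.076 and 0.019 for *pbs-4*, between -0.094 and 0.045 for *pbs-5*, between -0.088 and 0.049 for *rpn-2* and between -0.12 and 0.59 for *aip-1*. With the replicate number as a block, 246 genes and 0 members were called. Deviations of mutant and wt arrays with the same replicate number correlated at 0.06, 0.10 and 0.14 over the genes tested. Those of mutant and wt arrays with different numbers correlated at between -0.12 and 0.04. The labels do not say whether arrays with the same number were handled together, and the main fit does not pair them. With 3 arrays per group, no member's interval excluded both a 1.1-fold rise and a 1.1-fold fall.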
